A study of Mus musculus with 8 samples.

Results

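The levels of 9 channel genes, of 2 families that act on the resting potential of brain cells, were read from bulk RNA sequencing of the whole mouse brain. They were *Hcn2*, *Hcn3* and *Hcn4* of the hyperpolarization-activated cyclic nucleotide-gated (HCN) family and *Kcnk1*, *Kcnk2*, *Kcnk3*, *Kcnk4*, *Kcnk9* and *Kcnk10* of the two-pore-domain potassium (K2P) family. They were taken by gene symbol, 9 of the 24343 genes in the table, and hold 12 of its 34535 transcripts. The 8 libraries came from the brains of 3 C57BL/6NCrl mice, a wild-type inbred strain, aged 56 to 62 days, with no treatment or altered allele named. Mouse 1 and mouse 2 gave 3 libraries each and mouse 3 gave 2. There was 1 condition, so the comparisons open to these data were between the genes, between the transcripts of a gene and between the 3 mice. The labels do not say what separates the libraries of a mouse, so the spread between them may be technical, and they do not give the sex of each mouse.

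HCN channels open when the membrane is hyperpolarized and carry a depolarizing cation current, known as Ih, that paces rhythmic firing and limits dendritic summation. Binding of cyclic AMP to their intracellular domain shifts their opening, strongly in HCN2 and HCN4 and little in HCN3. K2P channels carry a background potassium current that draws the resting potential of neurons and glia toward the potassium equilibrium potential. They are grouped by what gates them, with the weakly conducting TWIK channels (*Kcnk1*), the TREK channels opened by stretch, heat and lipids (*Kcnk2*, *Kcnk10* and *Kcnk4*), and the TASK channels closed by extracellular acid (*Kcnk3* and *Kcnk9*). The HCN current depolarizes the resting cell and the K2P current hyperpolarizes it.

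Levels are given in FPKM, fragments mapped to a transcript scaled to its length and to the depth of the library, as deposited, summed over the transcripts of a gene. Means are over the 3 mice, each mouse first averaged over its libraries, with the SD between mice (n = 3). The libraries held 1.31 to 2.02 gigabases on transcripts (median 1.76), and the shallowest was replicate 1 of mouse 2. The summed FPKM of all transcripts was 384885 and 409889 in the libraries of mouse 3 and 295541 to 345572 in the other 6, so an FPKM value is a different share of the total in mouse 3. Markers fixed for the tissue were present in every library, with neuron markers (*Rbfox3*, *Snap25*, *Syt1*, *Slc17a7* and *Gad1*) summing to at least 1473 FPKM, and markers of pituitary and skeletal muscle summed to at most 3.17 and 12.9 FPKM. No marker list held a gene at 0 in all libraries.

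All 9 genes passed the minimum of 1 FPKM that 13001 genes passed. The order by mean level was *Hcn2*, *Kcnk1*, *Kcnk2*, *Kcnk3*, *Kcnk9*, *Hcn3*, *Kcnk10*, *Kcnk4* and *Hcn4*, from 51.7 ± 4.63 to 1.31 ± 0.209 FPKM. *Hcn2* lay at percentile 90.6 of the tested genes, *Kcnk1* at 84.2 and *Kcnk2* at 67.2, while *Hcn3*, *Kcnk10*, *Kcnk4* and *Hcn4* lay at 16.9, 14.8, 12.6 and 3.90. *Kcnk3* and *Kcnk9*, at 46.8 and 45.3, lay near the median of the tested genes, 8.81 FPKM. Among the 8 neighbouring pairs in this order, the library ranges did not overlap for 4. *Kcnk3* and *Kcnk9* could not be ordered, as *Kcnk3* was the higher in 5 of 8 libraries. *Hcn3* exceeded *Kcnk10* in 7 of 8 libraries and *Kcnk10* exceeded *Kcnk4* in 6 of 8, each in 2 of 3 mice, so these 3 low genes overlapped in their spread. *Kcnk4* exceeded *Hcn4* within each of the 8 libraries, although their ranges met between 1.64 and 1.75 FPKM.

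**Figure D1:**
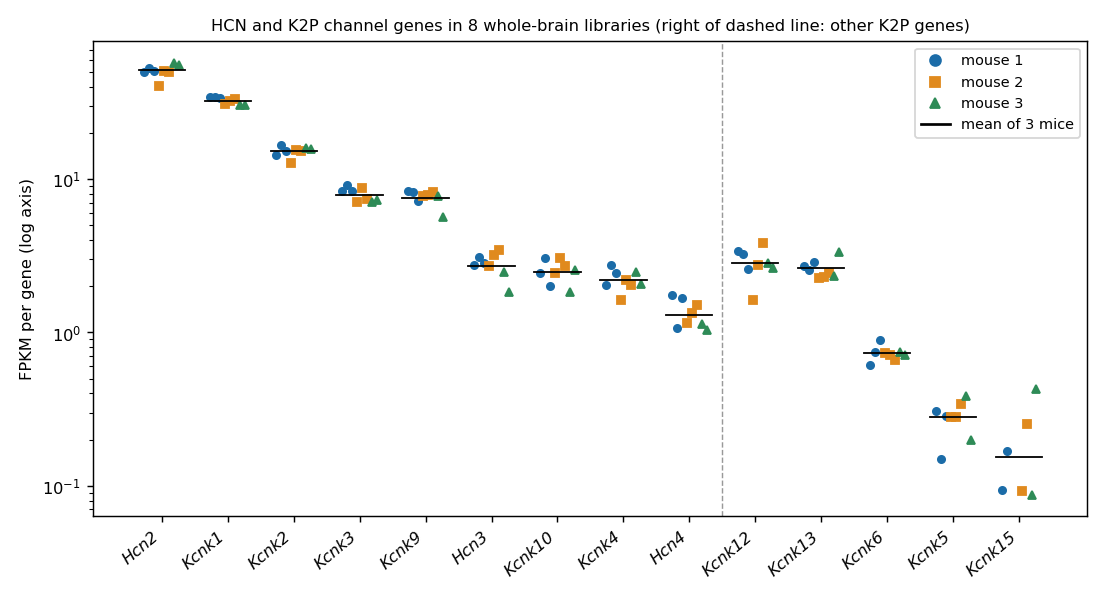
Level of each gene in FPKM on a log axis, with 1 point per library, marked by mouse, and a line at the mean of the 3 mice. The 9 genes described stand left of the dashed line, falling from 51.7 FPKM (*Hcn2*) to 1.31 FPKM (*Hcn4*), and other K2P genes with a mean above 0.1 FPKM stand right of it, where values of 0 cannot be drawn.

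*Hcn2* was the highest of the 3 HCN genes described in every library. *Hcn2*, the HCN subunit found most widely across the brain (chr10:79716634-79736108, plus strand, mm10), measured 50.0, 53.1 and 50.9 FPKM in the libraries of mouse 1, 40.8, 50.8 and 50.1 FPKM in mouse 2, and 57.4 and 55.6 FPKM in mouse 3. Both libraries of mouse 3 were above the other 6, and replicate 1 of mouse 2 was the lowest by a wide margin. *Hcn3* (chr3:89146775-89160157, minus strand) measured 2.75, 3.12 and 2.85 FPKM in mouse 1, 2.71, 3.19 and 3.47 FPKM in mouse 2, and 2.49 and 1.84 FPKM in mouse 3. Here both libraries of mouse 3 were below the other 6, the opposite side from *Hcn2*. *Hcn4*, the main pacemaker subunit of the sinoatrial node (chr9:58823512-58860955, plus strand), measured 1.75, 1.07 and 1.68 FPKM in mouse 1, 1.15, 1.35 and 1.52 FPKM in mouse 2, and 1.13 and 1.04 FPKM in mouse 3. Its mice overlapped, since replicate 2 of mouse 1 lay among the libraries of mouse 3.

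Of the summed level of these 3 HCN genes, 55.7 ± 4.02 FPKM, *Hcn2* held 92.7 ± 1.68%, *Hcn3* 4.96 ± 1.23% and *Hcn4* 2.37 ± 0.483%. *Hcn2* exceeded *Hcn3* 19.8 ± 6.03-fold and *Hcn4* 41.2 ± 9.42-fold. The *Hcn2* to *Hcn3* ratio, which does not depend on the scaling of a library, was 14.5 to 18.2 in the 6 libraries of mice 1 and 2 and 23.0 and 30.2 in mouse 3. This gap follows from the levels above, where mouse 3 lay on opposite sides for these genes, and is no separate result.

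The 6 K2P genes summed to 67.9 ± 3.28 FPKM and held 91.0 ± 0.646% of the summed level of all 14 K2P genes in the table. *Kcnk1*, which encodes TWIK-1 and is found in both neurons and astrocytes (chr8:125995102-126030688, plus strand), measured 34.6, 34.6 and 34.1 FPKM in mouse 1, 31.1, 32.4 and 33.4 FPKM in mouse 2, and 30.4 and 30.7 FPKM in mouse 3. Both libraries of mouse 3 were the lowest, by a margin of less than 1 FPKM to the lowest of mouse 2. The mean was 32.4 ± 1.94 FPKM. *Kcnk1* held 47.8 ± 0.633% of the level of these 6 genes, with 46.2 to 49.5% over the libraries, and *Kcnk2* held 22.6 ± 1.69%. It exceeded *Kcnk2* 2.13 ± 0.182-fold.

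*Kcnk2*, which encodes TREK-1, was the only one of the 9 genes with more than 1 transcript in the table (chr1:189207930-189402273, minus strand). Its 4 transcripts have different first exons, of which those of NM_001159850 and NM_010607 overlap. All 4 share 1235 coding nucleotides up to the stop codon, so they differ in the beginning of the protein. The first 60 coding bases of each are shown because this is where their coding sequences differ. The transcripts also differ in the noncoding part of their first exons, which is not shown. Capitals mark the bases outside the shared part. Sequences were taken from GENCODE transcripts matched to the RefSeq identifiers (GRCm38, the same assembly as mm10), 5′ to 3′ on the strand of the gene.
NM_001159850: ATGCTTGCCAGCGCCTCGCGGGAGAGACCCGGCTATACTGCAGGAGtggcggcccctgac
NM_010607: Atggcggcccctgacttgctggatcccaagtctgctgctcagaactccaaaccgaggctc
NM_001281848: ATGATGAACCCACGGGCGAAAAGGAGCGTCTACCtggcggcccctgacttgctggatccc
NM_001281847: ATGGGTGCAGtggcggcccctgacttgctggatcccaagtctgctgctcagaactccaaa
The coding bases not shared were 46, 1, 34 and 10 in that order, and the coding lengths 1281, 1236, 1269 and 1245 nucleotides. NM_001159850 starts furthest into the gene at position 189343353. NM_010607 and NM_001281847 start 354 and 839 nucleotides upstream of it, whereas NM_001281848 starts 58920 nucleotides upstream. NM_010607 shares its coding bases with the other 3 except for the first base of its start codon.

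The gene *Kcnk2* measured 14.3, 16.6 and 15.3 FPKM in mouse 1, 12.8, 15.4 and 15.4 FPKM in mouse 2, and 16.1 and 15.7 FPKM in mouse 3. The mice overlapped, and the mean of 15.3 ± 0.696 FPKM had the smallest coefficient of variation between mice of the 9 genes, 4.55%. NM_001159850, with the longest own stretch, measured 9.57, 10.1 and 10.6 FPKM in mouse 1, 11.0, 9.58 and 8.62 FPKM in mouse 2, and 9.63 and 10.5 FPKM in mouse 3. It was the highest of the 4 transcripts in every library and held 65.6 ± 2.42% of the gene, with 56.0 to 86.1% over the libraries. NM_010607 held 14.3 ± 0.983%, NM_001281848 12.2 ± 1.13% and NM_001281847 7.90 ± 2.20%. The order of these 3 was not the same in every library, and replicate 1 of mouse 2 stood apart. In that library NM_001159850 held 86.1%, NM_001281848 8.32%, NM_010607 5.60% and NM_001281847 0.000752%. Without it NM_001159850 held 62.6%. The reads were divided among the 4 transcripts by the deposited estimate, so the sum over the gene is firmer than any single transcript.

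**Figure D2:**
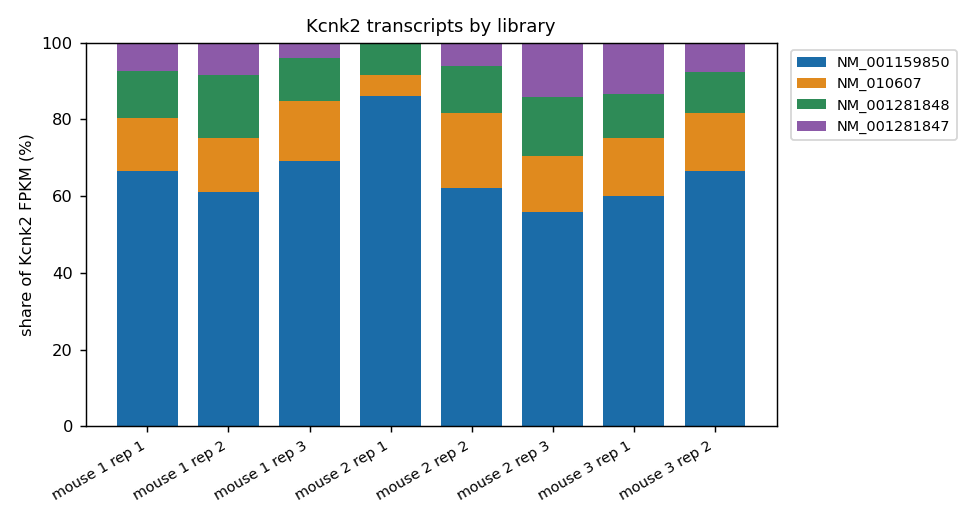
Share of the *Kcnk2* level held by each of its 4 transcripts, in percent, with 1 bar per library. NM_001159850 holds the largest share in all 8 libraries, from 56.0 to 86.1%, and NM_001281847 is close to 0 in replicate 1 of mouse 2.

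The other TREK genes were low. *Kcnk10*, which encodes TREK-2 (chr12:98433994-98577940, minus strand), measured 2.43, 3.06 and 2.01 FPKM in mouse 1, 2.44, 3.04 and 2.73 FPKM in mouse 2, and 1.84 and 2.54 FPKM in mouse 3. *Kcnk4*, which encodes TRAAK, a channel of the nodes of Ranvier (chr19:6925690-6934515, minus strand), measured 2.04, 2.78 and 2.44 FPKM in mouse 1, 1.64, 2.19 and 2.05 FPKM in mouse 2, and 2.48 and 2.06 FPKM in mouse 3. In both genes the libraries of a mouse spread as widely as the mice. *Kcnk2* exceeded *Kcnk10* 6.37 ± 1.07-fold and *Kcnk4* 6.98 ± 0.515-fold, and did so in every library (at least 5.07-fold and 5.99-fold).

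The TASK genes were close to each other. *Kcnk3*, which encodes TASK-1 (chr5:30588170-30625270, plus strand), measured 8.41, 9.22 and 8.44 FPKM in mouse 1, 7.13, 8.80 and 7.41 FPKM in mouse 2, and 7.14 and 7.36 FPKM in mouse 3. *Kcnk9*, which encodes TASK-3 and is strong in cerebellar granule cells (chr15:72512119-72546279, minus strand), measured 8.38, 8.22 and 7.20 FPKM in mouse 1, 7.80, 7.87 and 8.29 FPKM in mouse 2, and 7.82 and 5.68 FPKM in mouse 3. Replicate 2 of mouse 3 was the lowest library of *Kcnk9*, while replicate 1 of the same mouse lay among those of the other mice. The *Kcnk9* to *Kcnk3* ratio was 0.961 ± 0.0655, with 0.772 to 1.12 over the libraries, so the 2 genes were not told apart by level. The TREK genes together exceeded the TASK genes together 1.30 ± 0.138-fold, with a ratio above 1 in every library (1.12 to 1.56).

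Levels of the genes rest on transcript models of unequal completeness. The model of *Kcnk9* is 1209 nucleotides, equal to its coding length, whereas the GENCODE transcript of the same protein is 12300 nucleotides and the RefSeq locus extends 12581 bases beyond the deposited one. Those of *Kcnk10* and *Hcn4* are 2533 and 3798 nucleotides against 7460 and 6118 in GENCODE. Reads outside a model do not enter its FPKM, and the effect on the FPKM of these 3 genes was not tested. *Kcnk3* overlaps the antisense gene *Gm9899* (2.83 FPKM) over 450 bases at its start. Whether the strand was used in counting is not given in the sources used here, so reads there cannot be assigned to 1 of them.

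The precision of single libraries followed the level and the length. The transcript bases read from *Hcn2* came to 222 to 401 kilobases per library, against 7.49 to 16.1 kilobases for *Hcn4* and 4.62 to 10.4 kilobases for *Kcnk4*. The deposited lower and upper bounds of a value lay, in the median library, 4.19% from it for *Hcn2* and 6.58% for *Kcnk1*, but 25.9% for *Hcn4* and 29.8% for *Kcnk4*. The bounds did not overlap for 15 of the 28 pairs of libraries of *Hcn2*, 2 of them between libraries of 1 mouse, both involving replicate 1 of mouse 2. For *Kcnk1*, *Kcnk4* and *Kcnk9* they overlapped in all 28 pairs. The 4 pairs apart for *Hcn3* all involved replicate 2 of mouse 3, and the 4 for *Kcnk3* all involved replicate 2 of mouse 1. The bounds cover the deposited estimate's own error and not the spread between libraries.

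**Figure D3:**
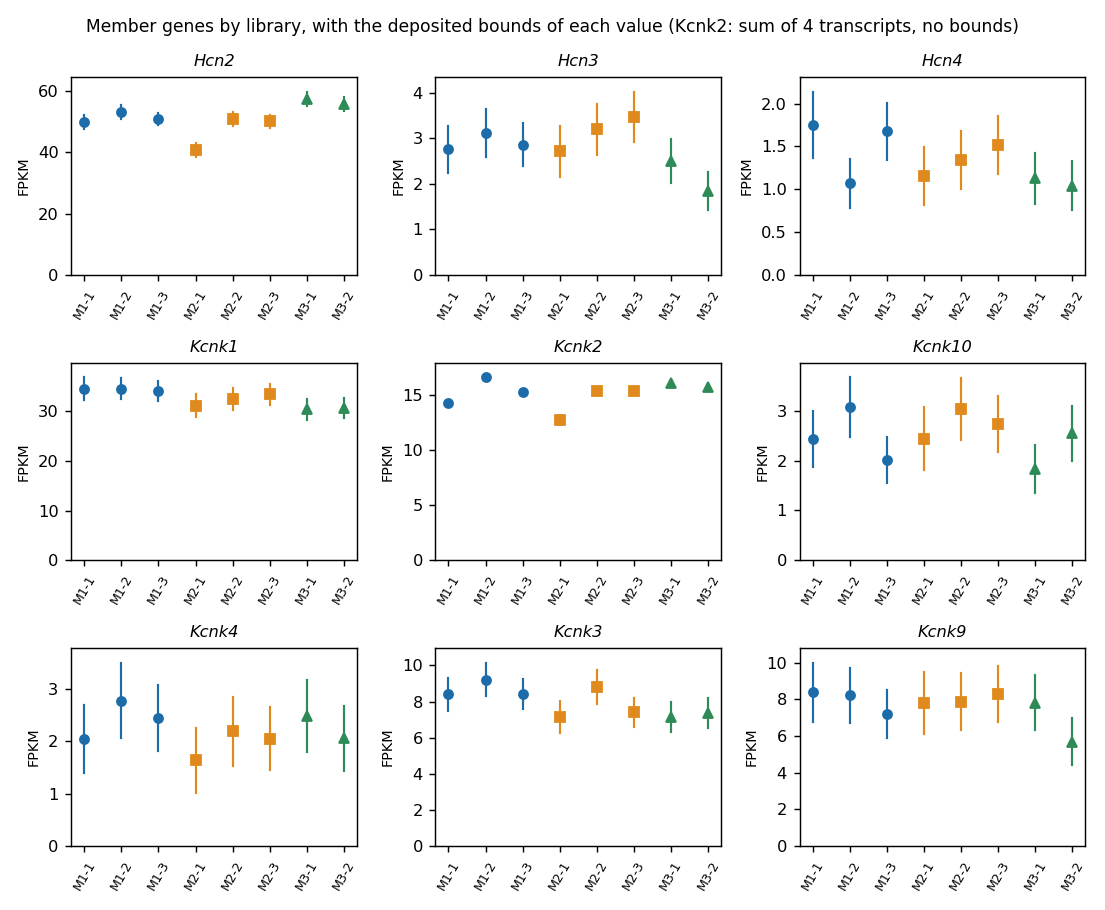
Level of each of the 9 genes by library in FPKM, with axes from 0. M1, M2 and M3 are the mice, followed by the replicate number, and vertical bars span the deposited lower and upper bounds (none for *Kcnk2*, a sum). *Hcn2* is highest in the libraries of mouse 3 (57.4 and 55.6 FPKM), *Hcn3* is lowest there (2.49 and 1.84 FPKM), and *Kcnk9* is lowest in replicate 2 of mouse 3 (5.68 FPKM).

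The 3 mice were compared gene by gene on the log2(FPKM + 1) scale by the moderated F-test in limma, with libraries as repeats of a mouse and Benjamini-Hochberg adjustment over all 13001 genes. The comparison describes these 3 mice only. None of the 9 genes passed an adjusted p of 0.05, against 25.5% of all tested genes (3310). That count was 126 without replicate 2 of mouse 3 and 1635 to 1835 without any 1 library of mouse 1. With no adjustment 1 of the 9, *Hcn3*, was under 0.05, as were 5303 of all genes. Its adjusted p was 0.0805 in limma. Limma with a trend of the spread on the level also called 0 of the 9. *Hcn3* passed without replicate 1 of mouse 2 (adjusted p = 0.0431 in limma, beside 29.7% of all genes), and *Hcn3* and *Kcnk9* passed without replicate 1 of mouse 3 (adjusted p = 0.0401 and 0.0413, beside 29.2%). *Hcn3* also passed where a trend on GC content was removed (adjusted p = 0.00993, beside 34.2%). The coefficient of variation between mice was 4.55 to 18.4% over the 9 genes with a median of 9.25%, beside a median of 12.3% over all tested genes, and 7 of the 9 were below that median. *Hcn3* varied most (18.4%), then *Hcn4* (16.0%). At the level of transcripts 0 of the 12 passed limma's F-test, beside 7.17% of 16436 tested transcripts (1179). At an unadjusted p under 0.05 in that test was 1 of the 12, beside 4970 of the 16436. Without any 1 library of mouse 1, replicate 2 or 3 of mouse 2, or replicate 2 of mouse 3, between 1 and 9 transcripts passed, and 1770 without replicate 1 of mouse 3. In TPM (FPKM rescaled to 1 total in every library) 3 of the 12 passed, those of *Hcn3*, *Kcnk1* and *Kcnk3*, beside 20.8% of all transcripts.

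Mouse 3 was the highest of the 3 mice in 1829 of the 3310 genes called and the lowest in 1464, and it was set against the mean of mice 1 and 2 in the same fit. This comparison was not chosen independently of these data, so its p-values and intervals may be too favourable. *Hcn3* was lower in mouse 3 by a log2 difference of -0.35 (SE 0.106, 95% interval -0.59 to -0.11, adjusted p = 0.0315 in limma), the 1 of the 9 that passed, whereas 37.9% of all tested genes passed in either direction and 17.5% passed as lower and 20.4% as higher. The call on *Hcn3* held in 2 of the 8 fits that left out 1 library, without replicate 1 of mouse 2 and without replicate 1 of mouse 3, and its adjusted p ran from 0.0155 to 0.275 over the 8. Its difference was -0.20 without replicate 2 of mouse 3 and -0.50 without replicate 1. Differences of the other 8 genes had intervals that included 0. They were 0.20 for *Hcn2* (95% interval -0.02 to 0.42), -0.22 for *Kcnk9* (-0.48 to 0.03), -0.21 for *Hcn4* (-0.48 to 0.07), -0.18 for *Kcnk10* (-0.49 to 0.12), -0.16 for *Kcnk3* (-0.36 to 0.05) and -0.12 for *Kcnk1* (-0.28 to 0.03) on the same scale. *Kcnk2* and *Kcnk4* were nearest to 0, at 0.08 (-0.13 to 0.30) and 0.04 (-0.21 to 0.30). Leaving out 1 library of mouse 3 moved several of these by over 1.5 times. *Kcnk9* was at -0.42 without replicate 1 of mouse 3, where it passed (adjusted p = 0.0150 in limma), and at -0.02 without replicate 2. *Kcnk10* was at -0.02 without replicate 1 and at -0.34 without replicate 2, and *Kcnk4* at -0.05 and 0.14. The median of the 9 was -0.16, beside 0.02 over all genes tested. Both libraries of mouse 3 lay above the other 6 for *Hcn2* and below them for *Hcn3* and *Kcnk1*, 3 of the 9, whereas 26.5% of all tested genes lay above, 21.7% below and 48.3% on either side.

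These differences depended on the scaling of the libraries. In TPM the median difference over all genes moved from 0.02 to -0.26, the genes called by the F-test with mouse 3 highest and lowest went from 1829 and 1464 to 700 and 4757, and all 9 genes were lower in mouse 3. Then 4 of the 9 passed the F-test, beside 42.3% of all genes. These were *Hcn3* (-0.69), *Kcnk9* (-0.53), *Kcnk3* (-0.46) and *Kcnk1* (-0.42), and all 4 were further below the other mice than the median gene. *Hcn2*, *Kcnk2* and *Kcnk4*, higher in mouse 3 in FPKM, were at -0.10, -0.20 and -0.20 in TPM, so their direction depends on the scaling. In the comparison of mouse 3 with the other mice 6 of the 9 passed in TPM, the same 4 with *Hcn4* (-0.52) and *Kcnk10* (-0.49), beside 52.1% of all genes. With a trend on GC content removed 3 passed, *Hcn2* (0.29) above and *Hcn3* (-0.41) and *Kcnk1* (-0.20) below, beside 46.2%. *Hcn3* was below the median of all genes under both, and *Hcn2* above it under both. Where the trend of each library on transcript length was removed instead, 0 of the 9 passed the F-test in limma, beside 20.4% of all genes. At an unadjusted p under 0.05 in that test were 4 of the 9, beside 4816 of all 13001 genes. In the comparison of mouse 3 with the other mice 4 passed, beside 32.7% of all genes. These were *Hcn2* (0.26) above and *Hcn3* (-0.29), *Kcnk1* (-0.19) and *Kcnk9* (-0.60) below. *Kcnk9*, whose model is the shortest of the 9, moved furthest of the 9 from its FPKM difference when the length trend was removed.

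**Figure D4:**
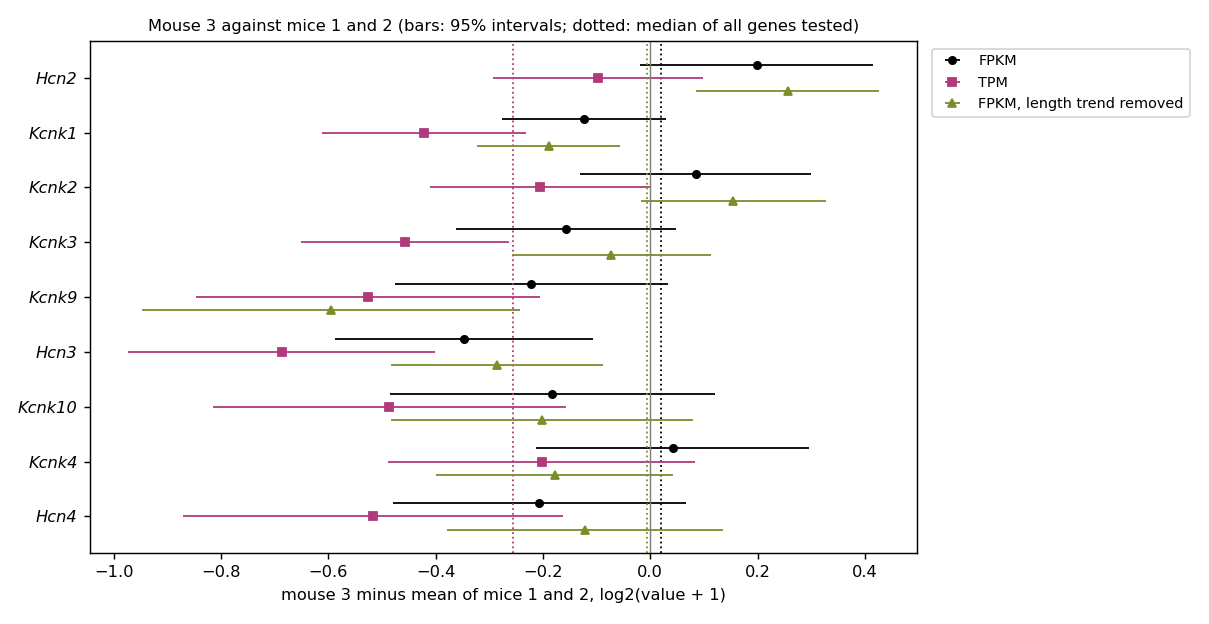
Difference between mouse 3 and the mean of mice 1 and 2 on the log2(value + 1) scale for the 9 genes, with 95% intervals from limma, for FPKM, TPM and FPKM with the trend on transcript length removed. Dotted lines mark the median of all tested genes under each, at 0.02, -0.26 and -0.01, and *Hcn3* lies left of these lines under all 3.

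Markers of some cell types and regions also differed in mouse 3. Over all tested genes 25.5% were called by the F-test in FPKM, so a count of 1 of 4 is near that share. An unadjusted p under 0.05 in that test was reached by 5303 of the 13001 genes. The summed astrocyte markers (*Aqp4*, *Slc1a3*, *Aldoc* and *Gja1*) were 868 to 956 FPKM in mouse 3 and 526 to 567 FPKM in the others, with 4 of 4 called by the F-test with mouse 3 highest, and the oligodendrocyte markers were 3676 to 4561 against 1902 to 2100 FPKM, with 2 of 4 called. Neuron markers were 1473 to 1567 against 1731 to 1875 FPKM, with 3 of 5 called and lowest in mouse 3, and markers of neocortex and hippocampus were 120 to 136 against 143 to 157 FPKM, with 2 of 4 called. Thalamus markers were 30.4 to 36.1 against 37.6 to 45.0 FPKM, with 1 of 4 called. Cerebellar granule cell markers, 133 to 173 against 144 to 151 FPKM, had 0 of 4 called by limma and 1 at an unadjusted p under 0.05. Among the other lists, 1 of 4 was called for striatum and for choroid plexus (lowest in mouse 3), 1 of 4 for blood and for microglia (highest), and none for Purkinje cells, endothelial cells, pituitary and skeletal muscle (unadjusted 2, 1, 1 and 0). In the pituitary and skeletal muscle lists only 1 gene of 4 each, *Pomc* and *Acta1*, passed 1 FPKM and was tested. These counts also depended on the scaling, and 42.3% of all genes were called in TPM. In TPM 1 of 4 was called with mouse 3 highest for astrocytes and for oligodendrocytes, and 5 of 5 with mouse 3 lowest for neurons, 3 of 4 for neocortex and hippocampus, 4 of 4 for thalamus, 2 of 4 for striatum and for choroid plexus, 1 of 4 for cerebellar granule cells and 1 of 3 for Purkinje cells. Microglia had 0 of 4 called in TPM by limma. With the length trend removed, beside 20.4% of all genes, thalamus had 2 of 4 called, lowest in mouse 3. Endothelial cells then had 1 of 3 called, highest in mouse 3, and pituitary the 1 gene tested, lowest. The other lists kept their counts. The part of this in the differences of *Hcn3* and *Hcn2* was not tested. In whole brain, fewer cells of a type and less RNA per cell cannot be told apart.

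The other K2P genes were read from a fixed list of 8. *Kcnk12* and *Kcnk13*, which encode the THIK channels, measured 2.85 ± 0.192 and 2.63 ± 0.264 FPKM, levels close to that of *Hcn3*. They passed 1 FPKM, and 0 of the 2 were called by limma, also 0 at an unadjusted p under 0.05. *Kcnk6*, *Kcnk5* and *Kcnk15* measured 0.730, 0.279 and 0.153 FPKM. *Kcnk7* was at 0 in 4 libraries and *Kcnk18* in 7, and *Kcnk16*, a channel known from the pancreas, was listed at 0 in all 8.

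Proteins that bind these channels were read from a list of 17 genes, of which 14 passed 1 FPKM and 3 were called by the F-test, near the 25.5% of all tested genes. In TPM 5 were called (42.3% of all genes), *S100a10* with mouse 3 highest and *Akap5*, *Vapa*, *Ywhab* and *Flna* with it lowest, and with the length trend removed 4 were (20.4%), *Akap5*, *Psd*, *Vapa* and *Vapb*. *Pex5l*, which encodes the HCN auxiliary subunit TRIP8b, was among the most even of them in FPKM, at 53.0 ± 1.09 FPKM, a level like that of *Hcn2*. In TPM its log2 difference in mouse 3 was -0.32, beside a median of -0.26 over all genes. It was not called there (adjusted p = 0.0509 in the F-test). The highest of the 17 was *Ywhab*, a 14-3-3 protein that binds TASK channels, at 175 ± 10.3 FPKM. *Akap5*, an anchor of protein kinase A that binds TREK-1, was lower in mouse 3 (6.49 to 8.76 against 14.0 to 16.3 FPKM, adjusted p = 0.00647). *S100a10*, a partner of TASK-1 in trafficking, was higher in mouse 3 (48.0 to 69.0 against 26.9 to 34.6 FPKM, adjusted p = 0.0102). *Psd*, an Arf6 exchange factor, was also higher (64.3 to 69.2 against 38.1 to 52.7 FPKM, adjusted p = 0.0387). *Psd* was not called in TPM (adjusted p = 0.262), with the highest transcript only (0.0591), with no minimum level (0.0645) or at a pseudocount of 0.1 (0.0526). With the length trend removed the log2 difference of *S100a10* went from 0.92 to 0.41 and it was not called (adjusted p = 0.0502). *Akap5* and *S100a10* lost their calls without replicate 2 of mouse 3 (adjusted p = 0.0539 and 0.0782), and *Psd* lost its call in 6 of the 8 fits that left out a library.

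Of the 9 adenylyl cyclase genes, which make the cyclic AMP that binds HCN channels, 8 passed 1 FPKM and 0 were called by limma (25.5% of all genes were). At an unadjusted p under 0.05 in the F-test were 3 of the 8, beside 5303 of all 13001 genes. *Adcy1* was the highest at 59.5 ± 7.54 FPKM, followed by *Adcy5* at 35.3 ± 3.77 and *Adcy2* at 29.6 ± 1.09 FPKM. With the trend on transcript length removed 1 was called, *Adcy1*, higher in mouse 3 by 0.63 on the log2 scale, beside 20.4% of all genes. In TPM 3 were called, *Adcy6*, *Adcy8* and *Adcy9*, all of them lowest in mouse 3, beside 42.3%.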

How the data were processed

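RNA from whole brains was sequenced after preparation with the Kapa mRNA HyperPrep kit. The authors deposited FPKM values per RefSeq transcript and library, with lower and upper bounds, and the deposited coverage signal per base of a transcript, from TopHat and Cufflinks on mm10 per the submitters' processing notes, with versions not given in the sources used here. Reads were divided among transcripts upstream, and depth is known only as coverage times length (1.31 to 2.02 gigabases). Here FPKM was summed per gene (Python 3.11.15, pandas 2.3.3). Differences between mice were tested on log2(FPKM + 1) for genes with a mean over mice of at least 1 FPKM, with the moderated F-test of limma 3.58.1 (R 4.3.3), Benjamini-Hochberg adjustment and a threshold of 0.05, since FPKM cannot enter a count model. The script was tested on simulated data. TPM is FPKM rescaled to 1 fixed total in every library. The genes named are the 9 members and the fixed lists of other K2P genes, binding partners, adenylyl cyclases and markers. The members and lists were chosen with earlier results of these data known. Alternatives were another pseudocount, no minimum level, TPM, removal of length and GC trends, limma's trend, the highest transcript only, a replicate block, and each library left out. Fold changes on this scale understate those of low genes. No sample column was left unused, and no promoter sequence was analysed here. Some results are not reported here.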

Additional observations from a re-analysis of the deposited data

Results flagged for a closer look

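Of 15 measures over the 8 libraries (levels of the 9 genes, of the 4 *Kcnk2* transcripts and of *Kcnk12* and *Kcnk13*), 3 had a library whose gap to its nearest neighbour, relative to the range of all 8, was above the limit of Dixon's test for 8 values. Chance flags about 1 in 20. *Hcn2* was 40.8 FPKM in replicate 1 of mouse 2, and the next library was at 50.0 FPKM (gap 0.553 of the range). *Kcnk9* was 5.68 FPKM in replicate 2 of mouse 3, and the next was at 7.20 FPKM (gap 0.562). The *Kcnk2* transcript NM_010607 was 0.716 FPKM in replicate 1 of mouse 2, and the next was at 1.96 FPKM (gap 0.542). Replicate 1 of mouse 2 was the library with the lowest depth, 1.31 gigabases, and also with the lowest summed FPKM, 295541. The part of depth and of the scaling in these values was not tested. The 8 libraries come from 3 mice and are not independent.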

How the results depend on the processing

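For the 9 genes 16 alternatives each (144 in all) were compared. By the F-test 131 kept their side of the threshold and the direction of mouse 3, 8 passed only under the alternative, 0 lost a call and 5 turned direction. By the comparison of mouse 3 with mice 1 and 2, 121 kept both, 11 passed only under the alternative, 7 lost the call and 5 turned direction. The 7 were all *Hcn3*. The genes called numbered 3310, and 5493 in TPM, 2171 with the highest transcript only and 126 to 3860 with a library left out. Of the 9 genes, 0 were called, and 4 in TPM, 1 with the GC trend removed and 0 to 2 with a library left out. Transcripts called numbered 1179, and 713 at pseudocount 0.1, 3418 in TPM, 1875 with limma's trend, 1 with the replicate block and 1 to 1770 with a library left out. The summed level of the 9 genes was 124 FPKM, 118 with the highest transcript only, 359 in TPM, and 123 to 125 with a library left out. The order of the 8 neighbouring pairs held except for *Kcnk3* and *Kcnk9* without replicate 2 of mouse 3 (7 to 8 pairs in order). The share of NM_001159850 was 65.6%, with 62.6 to 67.7% with a library left out.

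Directions that turned, as log2 differences, were *Hcn2* (0.20, TPM -0.10), *Kcnk2* (0.08, TPM -0.20), *Kcnk4* (0.04, TPM -0.20, length trend removed -0.18, library left out -0.052 to 0.14), NM_001159850 (0.02, TPM -0.27, replicate block -0.0026, library left out -0.035 to 0.074), NM_001281848 (-0.05, length trend removed 0.00047, library left out -0.15 to 0.025) and NM_010607 (0.18, TPM -0.0052). None of these was called by the F-test in FPKM or under the setting that turned it. TPM differs by the total of each library. For the others the cause was not tested.

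The labels do not say whether the replicate numbers pair samples. Correlations of same-numbered libraries' deviations from their mouse were 0.0028 to 0.107 with 1 above 0.1. Those of differently numbered libraries of different mice were -0.135 to 0.0645. Deviations within a mouse cancel, so these values are not independent. Whether libraries of 1 number shared a processing step cannot be told from these values. The fit with a block on the number called 2995 genes and 0 of the 9. In it *Hcn3* in mouse 3 against mice 1 and 2 gave an adjusted p of 0.0796 in limma. Every alternative named was run. The deposited bounds were widest, relative to the value, for *Hcn4*, *Kcnk4* and the lower 3 *Kcnk2* transcripts, and the part of depth in this was not tested.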
